A study of Danio rerio with 3 samples.

Results

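The solute carrier genes of epicardial cells were followed across cell classes and after heart injury in the adult zebrafish. Members were all genes whose symbol begins with slc, a family number, the letter a and a member number, with slc16a3, slc2a1a and slc2a1b left out, and with at least 300 UMIs summed over all droplets of the 3 libraries. A UMI (unique molecular identifier) stands for 1 captured transcript. Of 32520 genes counted, 377 had such a symbol, 3 were left out by name and 245 were under the minimum, 42 of them without a single UMI. This left 129 members with 741738 UMIs, which is 0.597% of all UMIs in the files. The 2 members just inside the limit were slc26a11 with 300 UMIs and slc25a15b with 305, and the 2 genes just outside it were slc9a7 with 290 and slc9a6b with 282. Without the Ctrl, the 3 dpa or the 7 dpa library, 12, 29 or 21 of the 129 members would have been under 300 UMIs, so a member with its UMIs in 1 library or class entered because it is high there. The members were thus chosen by their symbol and by their measured UMIs in these same libraries, and counts over members are given as descriptions.

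Solute carriers are membrane proteins that move small molecules across the cell surface or across the membranes of organelles. They are named by family, and a family usually shares its kind of cargo: families slc1, slc7, slc38 and slc43 carry amino acids, slc2 sugars, slc30, slc39 and slc40 metals, slc20 phosphate, slc29 nucleosides, and slc25 passes metabolites through the inner mitochondrial membrane. Several amino acid carriers of family slc7 work only as a pair with the single-span subunit encoded by slc3a2, also called CD98. The epicardium is the cell layer that covers the heart, and in zebrafish it becomes active after injury, gives rise to mesenchymal cells and is required for regrowth of the muscle.

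By family number the members fell into 13 groups. The mitochondrial carriers had 32 members, the amino acid carriers with their partner subunits 27, the metal carriers 16, the carriers of cations, chloride and bicarbonate 15 and the sugar carriers 10. The other 8 groups had between 1 and 7 members each. The groups follow the number alone: slc5a8l stands with the sugars although mammalian SLC5A8 carries monocarboxylates, slc16a10 stands with the monocarboxylates although mammalian SLC16A10 carries aromatic amino acids, and slc43a3b stands with the amino acids although mammalian SLC43A3 carries purine nucleobases. The symbols slc4a1ap, slc7a6os and slc9a3r1a match the pattern but belong to no transporter, and slc9a3r1a is the counterpart of the mammalian scaffold protein NHERF1. The genes were not spread evenly over the UMIs. slc25a5, the ADP/ATP carrier that passes ATP out of mitochondria, held 382495 UMIs, or 51.6% of those of all members, and the median member held 1213.

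The study compared the epicardium of uninjured fish (Ctrl) with that of fish 3 days and 7 days after partial ventricular amputation (3 dpa and 7 dpa), to follow the states that its cells pass through. All fish were EK zebrafish of 6 months carrying tcf21:nucEGFP, a nuclear green fluorescent reporter driven by regulatory sequence of the epicardial gene tcf21. Ventricles were dissociated, nucEGFP+ cells were sorted, and each condition gave 1 library of 10x Genomics 3′ v3 single-cell RNA-seq. The number of fish behind a library was not given in the sources used here, and with 1 library per condition there was no replicate check and no test, so a difference between times is a difference between 3 libraries.

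The Ctrl, 3 dpa and 7 dpa libraries held 5284, 4390 and 7002 droplets. Of these 5098, 3905 and 6624 were kept, with median depths of 4311, 9623 and 5435 UMIs per cell. Between 8 and 13 cell barcodes were shared by each pair of libraries. Clustering without slc genes, marker genes and tcf21 gave epithelial-like cells (275, 680 and 1249 in the same order of libraries), mesenchymal-like cells in 4 clusters (4343, 2004 and 4652), cells like the activated epicardial progenitor cells described in the study (aEPC-like; 6, 552 and 35), mural-like cells (335, 113 and 149), immune-like cells (92, 133 and 175), cardiomyocyte-like cells (30, 19 and 44) and a cluster led by the interferon-induced gene rsad2 that received no name (17, 404 and 320). The aEPC-like cluster had all 12 of its markers raised, but only 1 of them, col11a1a, was among its 10 leading genes. Most of the others act in mitosis or DNA replication (ube2c, cdc20, cdk1, ccnb1, tpx2, cenpf and top2a), so the levels given for aEPC-like cells are those of a class led by cell division genes, and the part of the cell cycle in them was not tested. The label of the sort was checked with tcf21, whose level in the whole library was 79.7, 31.4 and 62.1 UMIs per 10000 at Ctrl, 3 dpa and 7 dpa. It was 69.1, 28.4 and 36.3 in epithelial-like cells and 86.0, 48.6 and 79.1 in mesenchymal-like cells, and 15.6 in aEPC-like cells at 3 dpa. Immune-like cells, which should lack it, still showed 18.9%, 14.9% and 15.0% of the mesenchymal-like level. The few cardiomyocyte-like cells showed 38.8%, 75.8% and 60.2% of it. A member's level in a class can thus hold RNA from other cells, to a degree that differs between classes. The sort did not yield epicardial cells alone, and mural-like and immune-like cells are therefore reported as classes of their own.

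A level is the sum of a member's UMIs over the cells of a class in 1 library, per 10000 UMIs of all genes in those cells. Intervals are exact 95% Poisson intervals, or exact conditional intervals for a ratio, and cover counting error only. A member was called higher where the ratio of 2 levels was at least 2 and lower where it was at most 0.5, with at least 100 UMIs in both arms together. A member marked a class where its level was at least 2 times that of every other named class of at least 50 cells, in each library in which the class had at least 50 cells, with at least 20 UMIs each time.

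Few solute carriers marked epithelial-like or mesenchymal-like cells, several marked immune-like cells, and the number that marked aEPC-like cells depended on the settings. In epithelial-like cells 1 of the 67 members with enough UMIs marked the class (background over all genes 1.70%). In mesenchymal-like cells 2 of 119 did (background 1.05%), and in aEPC-like cells 1 of 119 (background 2.72%, 3 dpa library alone). In mural-like cells 2 of 18 did (background 10.1%) and in immune-like cells 8 of 31 (background 15.5%). Both mural-like marks, the mesenchymal-like mark slc24a4b and the immune-like marks slc7a7, slc22a21 and slc3a2a reached 300 UMIs only through the class they mark. The background over all genes carries no such minimum, so the counts of marks are partly fixed by the membership rule. With means over cells the aEPC-like marks were 9 and the immune-like ones 7, and with a fold of 1.5 they were 10 and 9. At 3 dpa immune-like cells had the highest level of 52 of the 129 members, aEPC-like cells of 33, mural-like cells of 24, mesenchymal-like cells of 13 and epithelial-like cells of 7. The same ranking was not made over all genes, so these counts cannot be read as a trait of the members. Immune-like and mural-like levels there rest on 988169 and 908526 UMIs, against 17533975 in mesenchymal-like cells. The part of counting error in the ranking was not tested.

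slc29a1b, an equilibrative nucleoside transporter, was the mark of epithelial-like cells. Its level there was 1.17 (Ctrl), 0.856 (3 dpa) and 0.728 (7 dpa), against 0.00341, 0.0205 and 0.0126 in mesenchymal-like cells. The next class was the immune-like one with 0.242, 0.162 and 0.256, and the ratios to it were 4.84 (2.94 to 8.54), 5.29 (3.24 to 9.29) and 2.84 (2.0 to 4.18). With each cell thinned to 1800 UMIs, 16.5%, 13.0% and 11.2% of epithelial-like cells held a slc29a1b UMI, against 0.0734%, 0.318% and 0.0916% of mesenchymal-like cells. Before thinning the epithelial-like shares were 54.9%, 41.2% and 38.7%. The gene therefore separated the classes at every time and at equal depth. Its paralog slc29a1a had no such pattern, with 0.0235, 0.0148 and 0.00952 in epithelial-like cells and its highest level, 0.0787, in aEPC-like cells at 3 dpa.

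slc2a11l, of the facilitative sugar transporter family, and slc24a4b, of the potassium-dependent sodium/calcium exchangers, marked mesenchymal-like cells. The slc2a11l level was 0.645 (Ctrl), 0.501 (3 dpa) and 0.779 (7 dpa) in mesenchymal-like cells and 0.0529, 0.0158 and 0.0293 in epithelial-like cells. The lowest ratio to any other class was 4.72 (2.63 to 9.49), to mural-like cells at Ctrl. The slc24a4b level was 0.0906, 0.0605 and 0.121 in mesenchymal-like cells and 0.0412, 0.00494 and 0.0220 in epithelial-like cells, the next class each time. Both calls depended on the other classes: with a mitochondrial limit of 10% a larger aEPC-like class at Ctrl had more slc24a4b than the mesenchymal-like cells, and with all genes kept in clustering the cardiomyocyte-like cells at 7 dpa had more slc2a11l. The lowest log2 ratio of slc2a11l was also under the fold with the 10% limit (0.27) and with log normalization (0.31). slc2a11l is also a leading gene of the mesenchymal-like cluster led by inhbb.

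slc17a9b, the vesicular nucleotide transporter that loads ATP into secretory vesicles, marked aEPC-like cells. Its level at 3 dpa was 0.334 in aEPC-like cells, 0.0672 in epithelial-like cells, 0.0970 in mesenchymal-like cells and 0.0991 in mural-like cells. The ratio to the mural-like level was 3.37 (1.76 to 7.41). The aEPC-like class had only 6 cells at Ctrl and 35 at 7 dpa, so the mark could be read in 1 library. Its lowest log2 ratio fell short of the fold with a mitochondrial limit of 10% (0.44) and with log normalization (0.63).

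Both mural-like marks stood far from the other named classes, none of which was endothelial-like. slc20a1a, a sodium-dependent phosphate transporter of the PiT1 type, had 4.09 (Ctrl), 2.12 (3 dpa) and 5.27 (7 dpa) in mural-like cells, at least 181 times the level of the next class in each library. slc7a2, a transporter of cationic amino acids such as arginine, had 1.43, 0.484 and 1.61 there, at least 54.4 times the next class. The class also held some cells with endothelial markers, and the levels without them are given here. A second clustering on log-normalized counts set 52 endothelial-like cells apart, 50 of which had been called mural-like. Over the 3 libraries these held slc20a1a at 0.997 and slc7a2 at 0.593, against 4.04 and 1.16 in the mural-like cells that remained. The slc7a2 levels lie within 2-fold, so by the fold of a mark it did not separate mural-like from endothelial-like cells.

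The 8 immune-like marks ranged from amino acid to metal carriers. slc7a7, a light chain that exports cationic amino acids, had 1.26 (Ctrl), 1.59 (3 dpa) and 1.87 (7 dpa) in immune-like cells. At Ctrl no mural-like cell held an slc7a7 UMI, so the level was at least 33.7-fold higher than the limit that 3 counts set there. slc3a2a, the CD98 subunit with which such light chains pair, had 2.28, 2.55 and 3.75, and slc22a21, of the organic cation and carnitine transporters, had 3.46, 5.17 and 3.99. These members were nearly silent elsewhere. The ratio to the next class was at least 402 for slc7a7 at 3 dpa and 7 dpa. In each library it was at least 363 for slc22a21 and 103 for slc3a2a. The remaining marks were higher in immune-like cells but present in the others. slc30a1a (zinc export), slc2a3b (glucose), slc1a3a (glutamate), slc37a2 (sugar phosphates of the endoplasmic reticulum) and slc40a1 (ferroportin, the iron exporter) had smallest ratios of 4.80, 4.0, 3.10, 3.05 and 2.23, in that order, and slc40a1 was not past the fold with means over cells (log2 ratio 0.85).

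**Figure D1:**
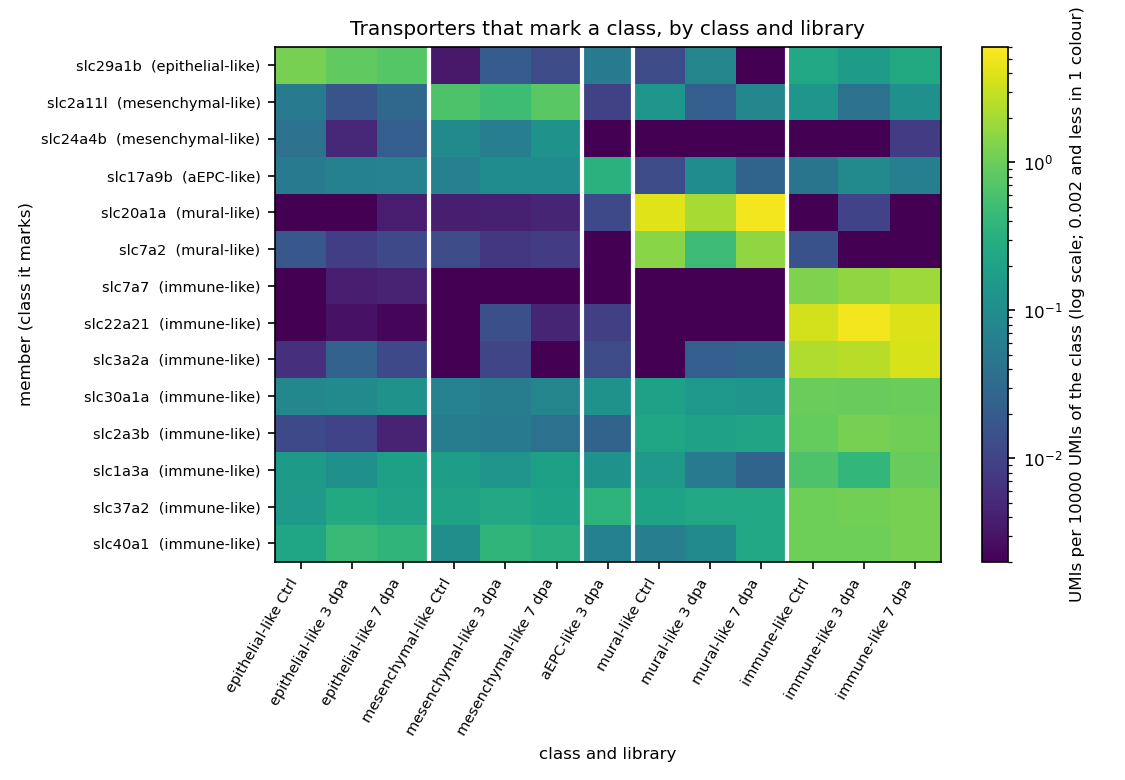
Levels of the 14 transporters that mark a class (rows, with the class in brackets) by class and library (columns), in UMIs per 10000 UMIs of the class on a logarithmic colour scale; the aEPC-like class is shown at 3 dpa only. The 2 mural-like marks and the first 3 immune-like marks are dark in every other class, whereas slc40a1 and slc37a2 are seen in most classes.

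In uninjured hearts, epithelial-like and mesenchymal-like cells differed in several carriers that mark neither class. Of 92 members with enough UMIs, 10 were higher in epithelial-like cells (10.9%, background 10.3%) and 18 lower (19.6%, background 18.0%), which is close to the shares of all genes. The median log2 ratio was -0.09 over members and 0.03 over all genes. slc5a8l had 1.34 in epithelial-like cells against 0.196 in mesenchymal-like cells, a ratio of 6.85 (5.98 to 7.85). slc43a3b had 3.57 against 0.861, a ratio of 4.14 (3.85 to 4.46), and slc43a1b, related to the neutral amino acid transporter LAT3, had 0.288 against 0.0701, a ratio of 4.11 (3.15 to 5.35). The organic cation transporter gene slc22a2 (0.509 against 0.168), the cationic amino acid transporter gene slc7a1 (0.168 against 0.0497), the heme transporter gene slc48a1b (0.394 against 0.138) and slc40a1 (0.232 against 0.103) were higher in epithelial-like cells as well. With equal weights for the 4 mesenchymal-like clusters slc40a1 was not past the fold (log2 ratio 0.55).

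Among the 18 lower members were 6 amino acid carriers. The sodium-coupled neutral amino acid transporter gene slc38a2 had 0.312 in epithelial-like cells against 1.21 in mesenchymal-like cells, a ratio of 0.257 (0.209 to 0.312). slc38a5a of the same family had 0.118 against 0.378, and slc43a1a had 0.0647 against 0.229. slc7a5, the large neutral amino acid carrier LAT1 that pairs with CD98, had no UMI in epithelial-like cells, which allows a level of up to 0.00882, against 0.0672 in mesenchymal-like cells, so it was at least 7.62-fold lower. Of the 20 amino acid carriers with enough UMIs, 6 were lower and 3 higher in epithelial-like cells, with a median log2 ratio of -0.28. Over all genes 18.0% were lower and 10.3% higher, and with so few carriers the difference from these shares is a matter of a few members. The copies slc43a1a and slc43a1b of 1 ancestral gene stood on opposite sides.

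At 3 dpa about as many members were higher as lower in both epicardial classes, and the amino acid carriers leaned to the lower side in both. In mesenchymal-like cells 112 members had enough UMIs, of which 21 were higher than at Ctrl (18.8%, background 14.3%) and 20 lower (17.9%, background 8.52%). In epithelial-like cells 11 of 67 were higher (16.4%, background 20.5%) and 14 lower (20.9%, background 7.82%). The median log2 ratio of members was 0.00 in mesenchymal-like and -0.07 in epithelial-like cells, below the medians of all genes, 0.14 and 0.28. After scaling by that median the counts were 20 higher and 23 lower in mesenchymal-like cells and 9 higher and 21 lower in epithelial-like cells. Median depth per cell also differed, with 6644 UMIs at 3 dpa against 4297 at Ctrl in mesenchymal-like cells and 13968 against 11078 in epithelial-like cells, and its part in these counts was not tested.

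Of the 22 amino acid carriers with enough UMIs in mesenchymal-like cells, 8 were lower at 3 dpa and 2 higher (8.52% and 14.3% of all genes). Their median log2 ratio was -0.49. In epithelial-like cells 5 of 15 were lower and 0 higher (7.82% and 20.5% of all genes), with a median of -0.51. slc3a2b, a CD98 subunit gene, had 0.578 (Ctrl), 0.182 (3 dpa) and 0.540 (7 dpa) in mesenchymal-like cells, and 0.309, 0.0810 and 0.242 in epithelial-like cells. The ratio of 3 dpa to Ctrl was 0.315 (0.277 to 0.356) in mesenchymal-like and 0.262 (0.194 to 0.354) in epithelial-like cells. The level dipped and came back in both classes. slc7a3a, a cationic amino acid transporter, had 0.422, 0.104 and 0.288 in mesenchymal-like cells and 0.218, 0.0880 and 0.0769 in epithelial-like cells, where it had not come back at 7 dpa. slc7a1, a transporter of the same kind, had 0.0497, 0.00513 and 0.0241 in mesenchymal-like cells, a ratio of 0.103 (0.0460 to 0.204) at 3 dpa.

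The neutral amino acid carriers moved less evenly. slc38a2 had 1.21 (Ctrl), 0.474 (3 dpa) and 0.664 (7 dpa) in mesenchymal-like cells, a ratio of 0.391 (0.361 to 0.423) at 3 dpa, but 0.312, 0.279 and 0.179 in epithelial-like cells, where the ratio of 0.894 (0.713 to 1.13) was not past the fold. slc1a5, a sodium-dependent exchanger of glutamine and other neutral amino acids, was called in epithelial-like cells, with 0.353, 0.125 and 0.267, and had 0.433, 0.230 and 0.461 in mesenchymal-like cells. slc38a5b likewise had 2.31, 1.03 and 1.96 in epithelial-like cells, a ratio of 0.448 (0.408 to 0.492), and 2.44, 1.47 and 2.31 in mesenchymal-like cells. slc7a5 in mesenchymal-like cells had 0.0672, 0.0194 and 0.0267. Whether the 2 classes differ in their response was not tested. Within the amino acid group, slc43a1b and slc7a6 went the other way in mesenchymal-like cells. slc43a1b had 0.0701, 0.203 and 0.145. slc7a6, which was named after its values were seen, had 0.0258, 0.0587 and 0.0348. The aromatic amino acid carrier slc16a10, placed with the monocarboxylates, was called higher there too.

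Cells outside the epicardium did not all move the same way. slc3a2b had 0.408 (Ctrl), 0.243 (3 dpa) and 0.264 (7 dpa) in immune-like cells and 0.595, 0.440 and 0.589 in mural-like cells, and slc7a3a had 0.212, 0.223 and 0.256 and 0.372, 0.396 and 0.294 there. slc38a2 had 0.817, 0.567 and 0.689 in immune-like cells and 2.17, 1.25 and 1.71 in mural-like cells. These values rest on far fewer UMIs than those of the epicardial classes, and no difference between classes was tested.

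Both phosphate carriers with enough UMIs were lower at 3 dpa in both classes, where 8.52% (mesenchymal-like) and 7.82% (epithelial-like) of all genes were lower. The third, slc20a1a, was under the UMI minimum in both. slc20a1b, a sodium-dependent phosphate transporter of the PiT1 type, had 5.15 (Ctrl), 1.91 (3 dpa) and 3.95 (7 dpa) in mesenchymal-like cells and 2.43, 0.979 and 1.37 in epithelial-like cells. The 3 dpa ratios were 0.371 (0.357 to 0.386) and 0.404 (0.368 to 0.443). The PiT2 gene slc20a2 had 0.867, 0.398 and 0.592 in mesenchymal-like cells and 0.623, 0.230 and 0.346 in epithelial-like cells. slc20a1b was also lower at 3 dpa in mural-like cells (5.98, 2.62 and 6.47) and in immune-like cells (2.66, 1.83 and 3.35). The direction was the same in all 4 classes. Whether RNA from other cells enters the mural-like and immune-like values was not tested.

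slc5a8l had the lowest ratio of 3 dpa to Ctrl among the named members. In epithelial-like cells its level was 1.34 (Ctrl), 0.0385 (3 dpa) and 0.206 (7 dpa), and the ratio of 3 dpa to Ctrl was 0.0287 (0.0201 to 0.0398). In mesenchymal-like cells it was 0.196, 0.0650 and 0.183. A gene that distinguished epithelial-like cells in the uninjured heart was thus at a level below that of mesenchymal-like cells at 3 dpa, and the 2 classes were close at 7 dpa. slc22a2 followed a similar order in epithelial-like cells, with 0.509, 0.146 and 0.278, a ratio of 0.288 (0.229 to 0.360). The chloride cotransporter gene slc12a7b had 0.297, 0.110 and 0.203 in epithelial-like cells, and slc11a2, which carries iron and other metals across membranes with protons, had 0.221, 0.0850 and 0.0996.

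Some metal carriers rose in both classes. In mesenchymal-like cells 5 of the 16 metal carriers were higher at 3 dpa and 1 lower, with a median log2 ratio of 0.42, where 14.3% of all genes were higher. In epithelial-like cells 2 of 9 were higher and 1 lower, with a median of 0.64, which is near the 20.5% of all genes that were higher. slc39a7, the counterpart of the mammalian ZIP7 that releases zinc from the endoplasmic reticulum, had 0.0852 (Ctrl), 0.412 (3 dpa) and 0.127 (7 dpa) in mesenchymal-like cells and 0.129, 0.591 and 0.179 in epithelial-like cells. The 3 dpa ratios were 4.84 (4.10 to 5.74) and 4.57 (3.36 to 6.35). The same order of times was seen outside the epicardium, with 0.0992, 1.07 and 0.107 in mural-like cells and 0.182, 0.719 and 0.216 in immune-like cells. At 3 dpa aEPC-like cells had the highest level, 2.09, and whether RNA set free from them enters the other values was not tested.

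slc40a1 had 0.103 (Ctrl), 0.371 (3 dpa) and 0.301 (7 dpa) in mesenchymal-like cells, a ratio of 3.60 (3.08 to 4.22) at 3 dpa. The epithelial-like levels were 0.232, 0.454 and 0.382, and the ratio of 1.95 (1.54 to 2.51) was just under the fold. Immune-like cells, where ferroportin was highest, stayed at 1.03, 1.01 and 1.16, and aEPC-like cells had 0.0677. A list of 12 immune markers summed to 0.651, 0.826 and 1.03 in mesenchymal-like cells and to 167, 140 and 164 in immune-like cells. slc39a1, a zinc importer of the ZIP family, had 0.0224, 0.0730 and 0.0218 in mesenchymal-like cells. The copper importer gene slc31a1 had 0.115, 0.274 and 0.156 in epithelial-like cells, a ratio of 2.39 (1.70 to 3.43).

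Mitochondrial carriers moved both ways. In mesenchymal-like cells 7 of 31 were higher at 3 dpa and 3 lower (14.3% and 8.52% of all genes), and in epithelial-like cells 4 of 17 were higher and 3 lower (20.5% and 7.82% of all genes). slc25a24, a carrier that exchanges ATP-magnesium for phosphate, had 0.215, 0.553 and 0.289 in mesenchymal-like cells and 0.385, 1.30 and 0.618 in epithelial-like cells, with ratios of 2.58 (2.30 to 2.89) and 3.36 (2.81 to 4.06). Its relative slc25a23a moved the opposite way in mesenchymal-like cells, with 0.201, 0.0673 and 0.135.

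Other mitochondrial carriers were named in 1 class. slc25a36a, of the pyrimidine nucleotide carriers, had 0.0500 (Ctrl), 0.168 (3 dpa) and 0.103 (7 dpa) in epithelial-like cells, whereas slc25a33, a pyrimidine nucleotide carrier too, had 0.291, 0.116 and 0.137 there. slc25a1a, of the citrate carriers, had 0.0127, 0.0513 and 0.0302 in mesenchymal-like cells, and slc25a48 had 0.0102, 0.0610 and 0.0470. slc25a5 itself was not called, with 34.6, 27.8 and 32.8 in mesenchymal-like cells and 37.5, 24.0 and 30.2 in epithelial-like cells. Since it holds most member UMIs it set the sum over members, which was 65.0, 53.2 and 61.4 in mesenchymal-like cells and 66.6, 51.1 and 55.8 in epithelial-like cells. Without it the sums were 30.4, 25.4 and 28.5 and 29.1, 27.1 and 25.6.

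Sugar and monocarboxylate carriers completed the named members that rose. slc2a12, a glucose transporter of the GLUT family, had 0.0628 (Ctrl), 0.205 (3 dpa) and 0.165 (7 dpa) in mesenchymal-like cells, a ratio of 3.27 (2.67 to 4.03) at 3 dpa. slc37a4a, which moves glucose 6-phosphate into the endoplasmic reticulum, had 0.0180, 0.0616 and 0.0317 there. slc2a10 was called in epithelial-like cells, with 0.0294, 0.102 and 0.0454. slc16a10, of the aromatic amino acid transporters, had 0.143, 0.455 and 0.185 in mesenchymal-like cells, a ratio of 3.18 (2.77 to 3.64). It was lower throughout in epithelial-like cells, with 0.0412, 0.0781 and 0.0659. The fatty acid transporter gene slc27a1a (0.0559, 0.157 and 0.105) and the scaffold gene slc9a3r1a (0.276, 0.798 and 0.452) were called in epithelial-like cells alone, where slc22a18 and slc49a4 had ratios of 2.44 and 3.19.

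**Figure D2:**
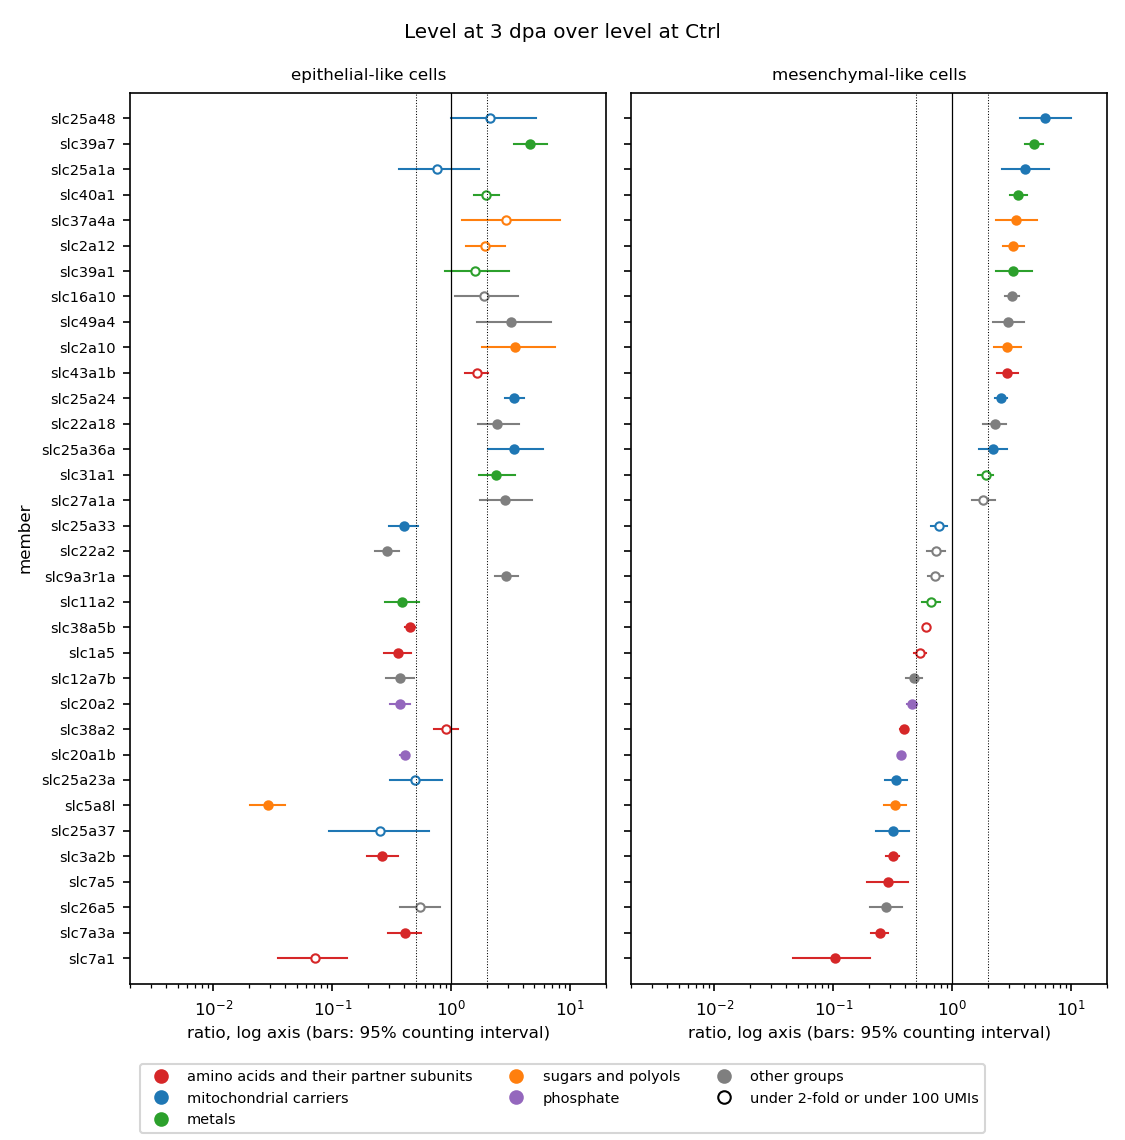
Ratio of the level at 3 dpa to the level at Ctrl for the named members (rows) in epithelial-like cells (left) and mesenchymal-like cells (right), on a logarithmic axis with 95% counting intervals. Filled points are past 2-fold with at least 100 UMIs. Members of the amino acid group (red) and both phosphate carriers (purple) lie left of 1 apart from slc43a1b. Most metal carriers (green) lie right of 1, as does slc16a10 of the monocarboxylate group. In the left panel slc7a5 has no point because it had no UMI at Ctrl.

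The mesenchymal-like class joins 4 clusters whose shares of cells differ between libraries, and the changes were looked at in each. The named members were picked from the sum of these same clusters, so agreement between the clusters is partly built in. It is no replication, and the same counts were not made over all genes. The 10 named members that were higher at 3 dpa were on the same side in all 4 clusters, 7 of them past 2-fold in each. Of the 10 lower members 9 were on the same side in all 4 and 7 past 2-fold in each, and slc7a5 had no ratio in the cluster led by rgs5b. For slc3a2b the ratios were 0.295 in the cluster led by inhbb, 0.336 in that led by ptger2b, 0.266 in that led by si:ch211-240l19.6 and 0.355 in that led by rgs5b. For slc39a7 they were less even, with 2.13, 9.24, 5.07 and 13.4. The 7 dpa calls were less even over the clusters. Against Ctrl, 9 of 9 higher members were on the same side in all 4 clusters and 4 past 2-fold in each. Of the 4 lower members 3 were on the same side in all 4, and 0 were past 2-fold in each. Against 3 dpa, 10 of 10 higher and 7 of 8 lower members were on the same side in all 4. Past 2-fold in each cluster were 2 of the higher and 2 of the lower ones.

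Among the 4 mesenchymal-like clusters, only the one led by ptger2b was marked by carriers, and these were present elsewhere at lower levels. By a rule added after the values were seen (at least 2 times the level of the other 3 clusters in each library, with at least 20 UMIs), 3 of 98 members marked it (background 1.36%), while 0 of 96 marked the cluster led by inhbb (background 0.371%), 0 of 48 that led by si:ch211-240l19.6 (background 0.156%) and 0 of 20 that led by rgs5b (background 0.178%). slc4a7, a sodium-bicarbonate cotransporter, had 0.527 (Ctrl), 0.264 (3 dpa) and 0.338 (7 dpa) in it, against 0.152, 0.0390 and 0.0485 in the cluster led by inhbb. slc6a8, the creatine transporter, had 0.0457, 0.0446 and 0.0262, against 0.0147, 0.00975 and 0.00646. slc25a37, the mitochondrial iron carrier known from red blood cells, had 0.141, 0.0487 and 0.0639, against 0.0692, 0.0146 and 0.0280. A list of 7 erythroid genes summed to 6.10, 10.8 and 7.19 in all mesenchymal-like cells and to 0.0618, 0.213 and 0.145 in epithelial-like cells, and its part in the slc25a37 level was not tested.

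At 7 dpa fewer members differed from Ctrl. In mesenchymal-like cells 9 of 114 were higher (7.89%, background 4.82%) and 4 lower (3.51%, background 1.96%), and in epithelial-like cells 3 of 73 were higher (4.11%, background 6.68%) and 8 lower (11.0%, background 3.37%). Both times are set against the same Ctrl library. In mesenchymal-like cells the iron exporter slc40a1 kept a ratio of 2.92 (2.50 to 3.41), slc2a12 one of 2.63 (2.15 to 3.22) and slc25a48 one of 4.60 (2.88 to 7.69). slc7a8a, a neutral amino acid carrier that pairs with CD98, was higher at 7 dpa without having been called at 3 dpa, with 0.287 (Ctrl), 0.329 (3 dpa) and 0.682 (7 dpa) and a ratio of 2.38 (2.17 to 2.61). The 4 lower members were slc25a37, slc7a5, slc4a7 and slc7a1. None of them was past 2-fold in all 4 mesenchymal-like clusters, and slc25a37 and slc4a7 also mark the cluster led by ptger2b.

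In epithelial-like cells most of the 7 dpa calls were members lower than at Ctrl. Of these, only slc5a8l and slc7a1 were called higher at 7 dpa than at 3 dpa, without reaching the level of Ctrl. Smaller rises, as in slc25a33 and slc11a2, were not past the fold. slc5a8l kept a ratio of 0.153 (0.131 to 0.178) and slc7a3a one of 0.353 (0.260 to 0.482). slc7a1 had 0.168 (Ctrl), 0.0119 (3 dpa) and 0.0725 (7 dpa), with a ratio of 0.432 (0.309 to 0.610) at 7 dpa. slc26a5, the prestin gene of the anion transporter family, had 0.132, 0.0721 and 0.0491. Among the higher members slc49a4 had a ratio of 3.46 (1.83 to 7.38) and slc25a36a one of 2.07 (1.24 to 3.65).

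Set against 3 dpa, the called members of the amino acid group were all higher at 7 dpa. The aromatic amino acid carrier slc16a10, which stands in the monocarboxylate group, was called lower in mesenchymal-like cells. In mesenchymal-like cells 11 of 116 members were higher at 7 dpa (9.48%, background 3.94%) and 8 lower (6.90%, background 6.33%), and in epithelial-like cells 6 of 91 were higher (6.59%, background 4.25%) and 7 lower (7.69%, background 11.3%). Scaling by the median of all genes gave 10 higher and 2 lower in epithelial-like cells. The amino acid group had 21 members with enough UMIs in mesenchymal-like cells and made up 4 of the 11 higher members. In epithelial-like cells it had 19 and made up 5 of the 6. Its median log2 ratios were 0.46 and 0.00, against -0.05 and -0.18 over all genes. In some alternative runs slc7a8a (mesenchymal-like) and slc1a5 (epithelial-like) were not past the fold, nor were several lower members. The lower members held none of the group. They included 2 metal and 4 mitochondrial carriers in mesenchymal-like cells, and 2 metal and 3 mitochondrial carriers in epithelial-like cells. slc43a2a, a neutral amino acid transporter of the LAT4 type, had 0.333 (Ctrl), 0.166 (3 dpa) and 0.490 (7 dpa) in mesenchymal-like cells and 0.276, 0.126 and 0.401 in epithelial-like cells. The ratios of 7 dpa to 3 dpa were 2.95 (2.60 to 3.36) and 3.20 (2.63 to 3.91). For slc3a2b they were 2.97 (2.63 to 3.36) and 2.99 (2.34 to 3.86). slc39a7 came back down, with ratios of 0.308 (0.270 to 0.352) and 0.304 (0.261 to 0.353).

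**Figure D3:**
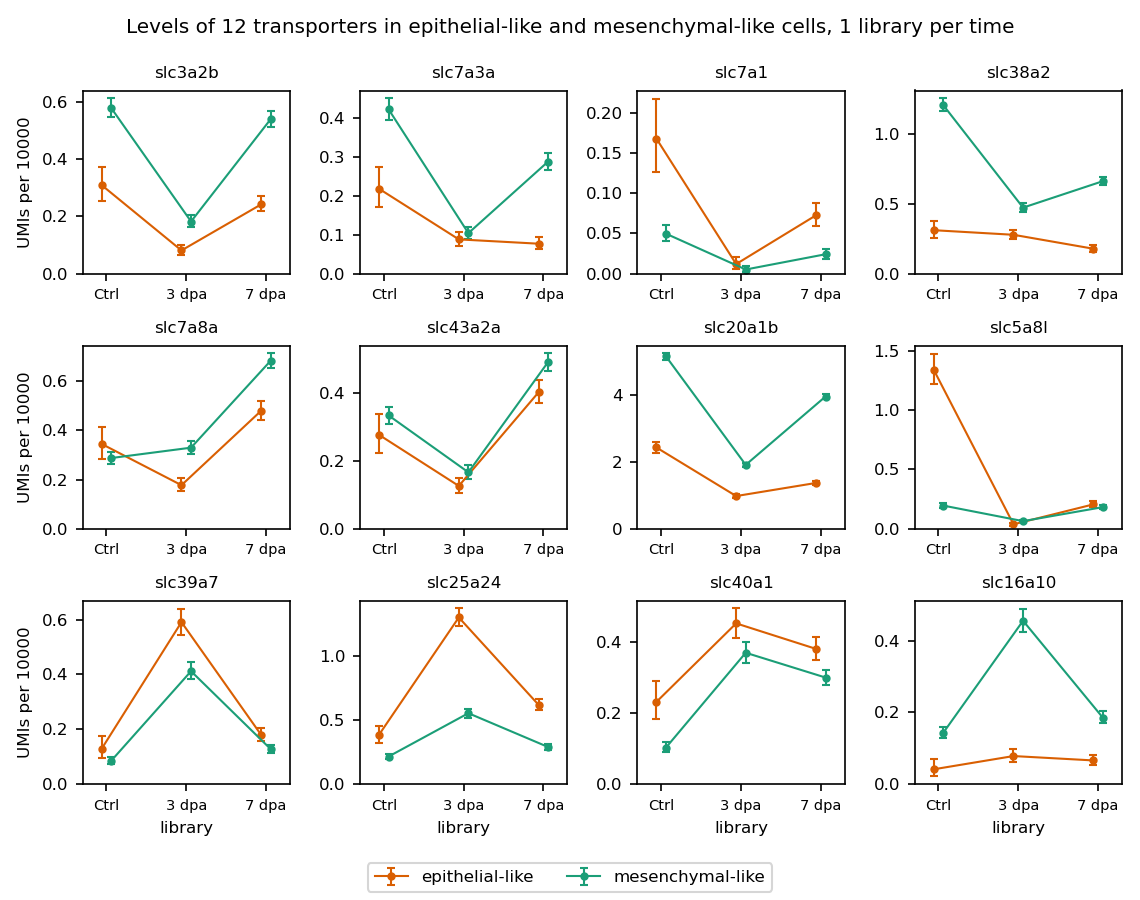
Levels of 12 transporters, in UMIs per 10000 UMIs, at Ctrl, 3 dpa and 7 dpa in epithelial-like cells (orange) and mesenchymal-like cells (green), with 95% counting intervals and 1 library per time. The members of the amino acid group other than slc7a8a are lowest at 3 dpa in mesenchymal-like cells, as are slc20a1b and slc5a8l. The 4 members of the bottom row, slc16a10 among them, are highest at 3 dpa in both classes.

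The aEPC-like cells of the 3 dpa library were compared with the epithelial-like and mesenchymal-like cells of the same library. Shares of members called were near those of all genes, except that fewer were higher than in mesenchymal-like cells. Against epithelial-like cells 27 of 103 members were higher (26.2%, background 22.2%) and 9 lower (8.74%, background 7.40%), and against mesenchymal-like cells 20 of 113 were higher (17.7%, background 29.9%) and 14 lower (12.4%, background 10.2%). The median log2 ratio was 0.43 and 0.32 over members, against 0.33 and 0.49 over all genes. Scaled by that median the counts were 18 higher and 13 lower against epithelial-like cells and 9 higher and 22 lower against mesenchymal-like cells, so the balance of directions depends on the scaling. Median depth was 27447 UMIs per aEPC-like cell, against 13968 per epithelial-like and 6644 per mesenchymal-like cell, and its part in these counts was not tested.

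Several metal carriers were higher in aEPC-like cells. Of 15 with enough UMIs, 7 were higher and 1 lower than in epithelial-like cells (22.2% and 7.40% of all genes) and 6 higher and 1 lower than in mesenchymal-like cells (29.9% and 10.2% of all genes). The median log2 ratios were 0.96 and 0.88. Smaller groups had medians as high, such as the nucleoside carriers, where 2 of 2 were higher than in mesenchymal-like cells with a median of 1.65. slc39a7 had 2.09 in aEPC-like cells against 0.591 in epithelial-like and 0.412 in mesenchymal-like cells, with ratios of 3.53 (3.23 to 3.86) and 5.06 (4.67 to 5.49). slc30a7, which loads zinc into the Golgi, had 0.818 against 0.289 and 0.306, and slc39a6, a zinc importer, had 0.0885 against 0.0178 and 0.0314. The metal carrier that was lower was slc40a1, with 0.0677 against 0.454 and 0.371 and ratios of 0.149 (0.119 to 0.185) and 0.182 (0.147 to 0.224).

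Other members higher in aEPC-like cells included a member of the monocarboxylate group, mitochondrial carriers and amino acid carriers. slc16a6b, whose zebrafish relative slc16a6a exports ketone bodies from the liver, had 0.101 in aEPC-like cells against 0.0128 in epithelial-like and 0.0108 in mesenchymal-like cells, with ratios of 7.90 (4.49 to 15.2) and 9.37 (5.80 to 16.0). slc25a12, the mitochondrial aspartate/glutamate carrier, had 0.172 against 0.0455 and 0.0399, and slc25a11, the oxoglutarate/malate carrier, had 0.422 against 0.206 and 0.125. Both act in the malate-aspartate shuttle. slc7a10a, a carrier of small neutral amino acids, had 0.481 against 0.0810 and 0.166, and slc43a1a had 0.317 against 0.0544 and 0.159. slc10a7 (0.233 against 0.0830 and 0.0776) and slc25a20, the acylcarnitine carrier (0.525 against 0.373 and 0.20), were among the named members too.

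Several carriers that were high in the other epicardial classes were low in aEPC-like cells. slc29a1b had 0.0527 against 0.856 in epithelial-like cells, a ratio of 0.0616 (0.0484 to 0.0774), and slc2a11l had 0.00976 against 0.501 in mesenchymal-like cells, a ratio of 0.0195 (0.0108 to 0.0323). slc22a2 had 0.0208 against 0.146 in epithelial-like and 0.124 in mesenchymal-like cells, and slc43a2a had 0.0221 against 0.126 and 0.166. slc2a12 had 0.0800 against 0.199 and 0.205. Against mesenchymal-like cells slc7a8a (0.0924 against 0.329), slc5a8l (0.00911 against 0.0650) and slc25a25a (0.284 against 0.696) were lower as well. The members of this paragraph were picked because they were lower in aEPC-like cells than in 1 of the classes, and slc29a1b was not lower than in mesenchymal-like cells, which had 0.0205.

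**Figure D4:**
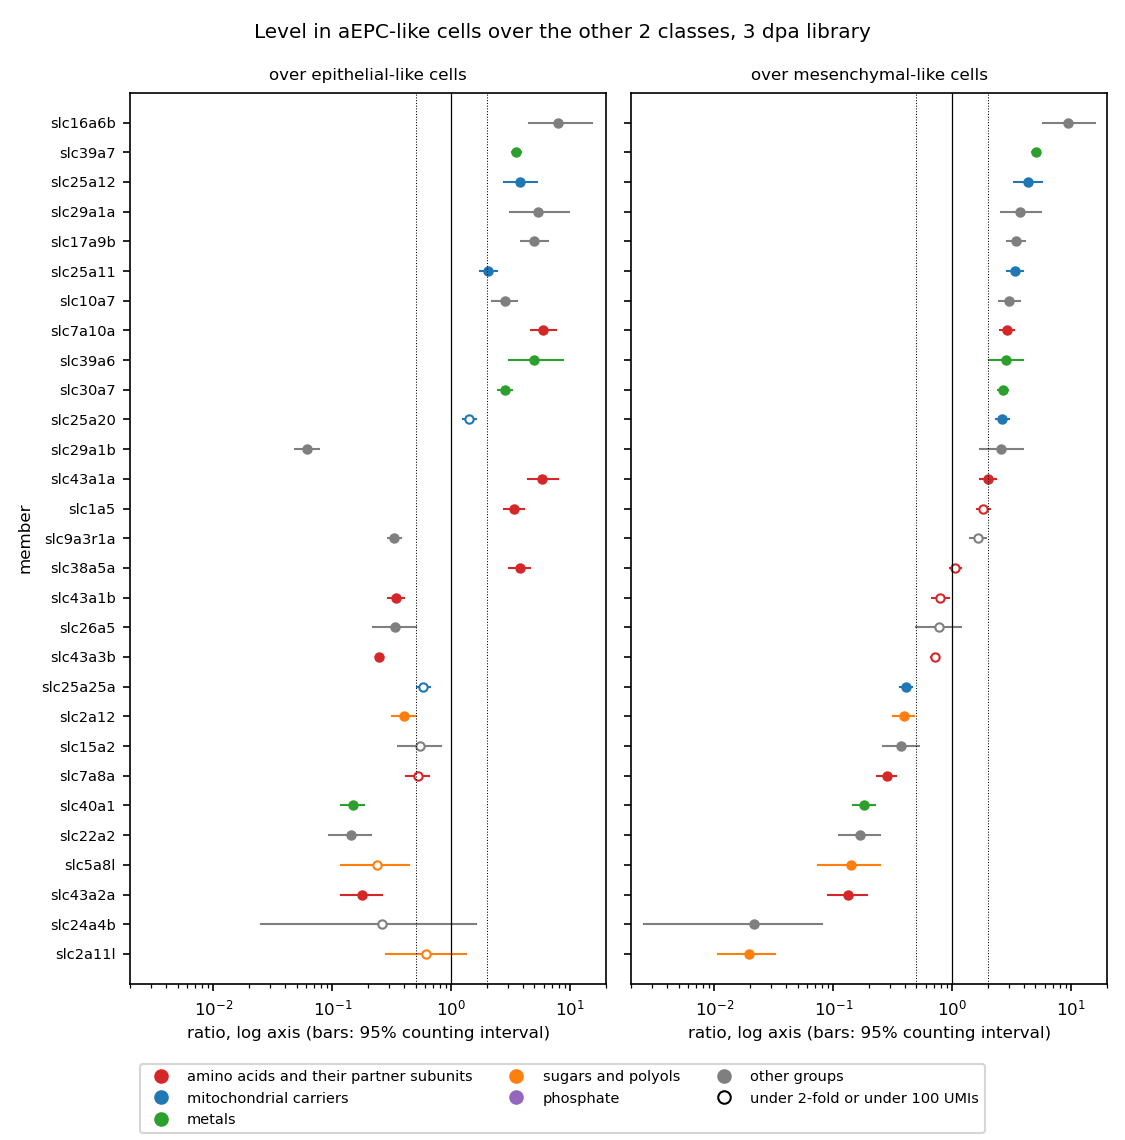
Ratio of the level in aEPC-like cells to the level in epithelial-like cells (left) and mesenchymal-like cells (right) of the 3 dpa library for the named members, on a logarithmic axis with 95% counting intervals. Points from slc16a6b to slc30a7 lie right of 1 on both sides, and slc40a1, slc22a2, slc43a2a and slc2a12 lie left of it on both sides.

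Zebrafish keep 2 copies of many single mammalian genes, and 9 such pairs had both copies among the members. In 4 of them the copies were spread differently over the classes. For slc20a1 the a copy was a mural-like mark at 2.12 at 3 dpa, with 0.0117 in aEPC-like cells as the next class, while slc20a1b was present in every class at between 0.979 and 2.62. For slc3a2 the a copy, slc3a2a, was an immune-like mark, while slc3a2b was found in every class at 3 dpa, with 0.0810 in epithelial-like, 0.182 in mesenchymal-like, 0.252 in aEPC-like, 0.440 in mural-like and 0.243 in immune-like cells. For slc29a1 the b copy was the epithelial-like mark. Its paralog slc29a1a marked no class but was higher in aEPC-like cells than in epithelial-like and mesenchymal-like cells. For slc43a1 the b copy was highest in epithelial-like cells at 0.471 and slc43a1a in aEPC-like cells at 0.317. The pairs of slc12a7, slc25a36, slc38a5, slc48a1 and slc7a3 were less divided. In slc7a3 the a copy and in slc48a1 the b copy had the higher level in each of the 5 classes at 3 dpa. Reads are 3′ tags, and whether close copies share reads was not checked.

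**Figure D5:**
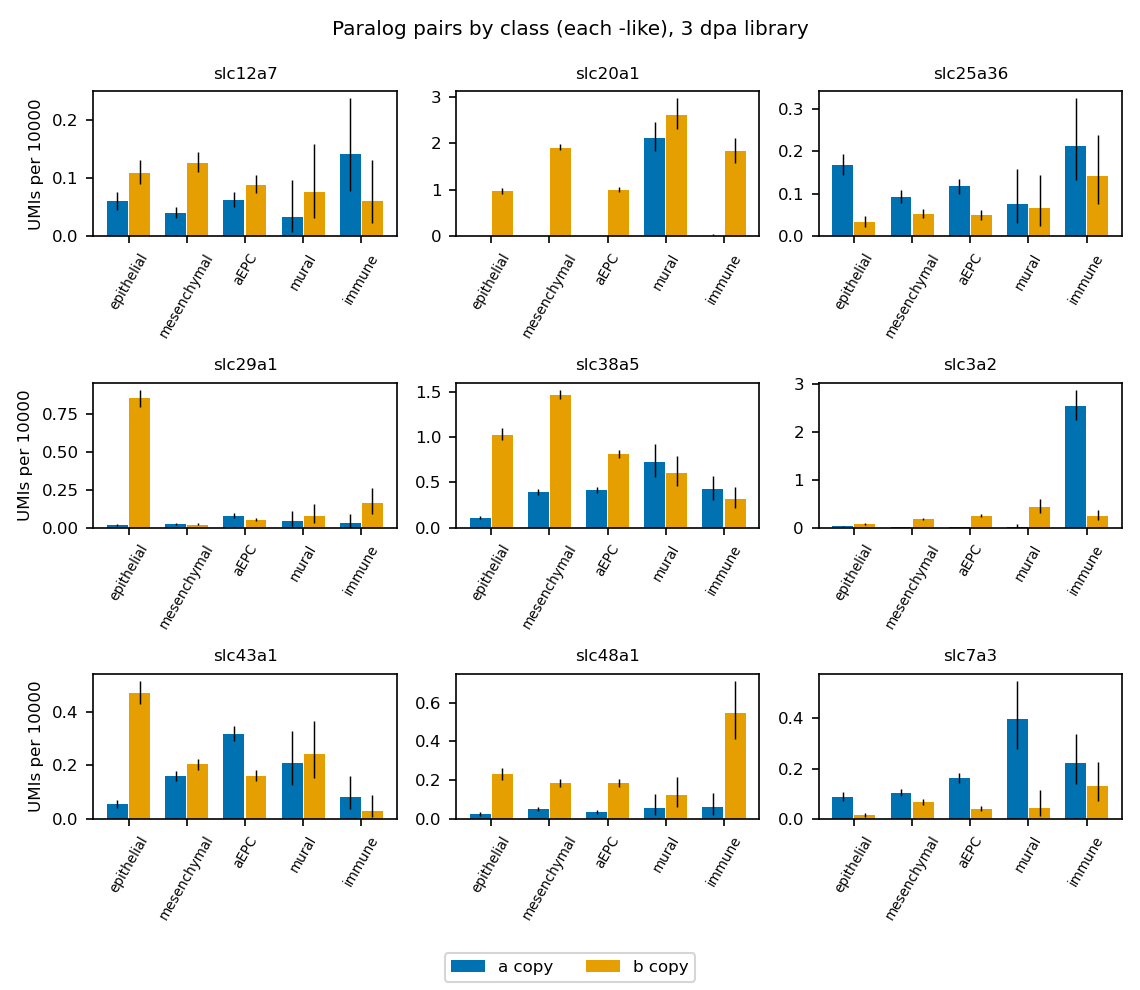
Levels of the a copy (blue) and b copy (yellow) of 9 paralog pairs in 5 classes of the 3 dpa library, in UMIs per 10000 UMIs with 95% counting intervals; each panel has its own axis from 0. The slc20a1, slc29a1 and slc3a2 pairs each have a copy that is highest in 1 class, the mural-like, epithelial-like and immune-like class in that order.

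Genes outside the family were read beside the amino acid carriers, and a link between them and the carriers was not tested. The amino acid response, in which the factor Atf4 turns on carriers and amino acid synthesis when amino acids run short, was read through a list of 17 genes, of which 13 were found and 10 had enough UMIs in mesenchymal-like cells. At 3 dpa 5 of the 10 were lower than at Ctrl (8.52% of all genes) and 2 higher (14.3% of all genes), with a median log2 ratio of -1.17, against 0.14 over all genes. atf4b, 1 of the genes for that factor, had 4.07 at 3 dpa against 10.6 at Ctrl, whereas the other, atf4a, had 0.972 against 0.963. The Atf4 target trib3 had 1.20 against 3.55, and chac1, a glutathione-degrading enzyme, had 1.68 against 4.54. The 2 higher genes belong to serine synthesis: phgdh, the first enzyme of that pathway, had 0.0587 against 0.00925 and psph, its last, had 0.0707 against 0.0107, while psat1, the enzyme between them, had 0.282 against 0.226 and was not called. In epithelial-like cells 2 of 7 were higher (psat1 and psph, with 20.5% of all genes higher) and chac1 was lower, with 1.76 against 6.11. aEPC-like cells had 5 of 10 higher than either class, where 22.2% of all genes were higher than in epithelial-like and 29.9% than in mesenchymal-like cells, among them phgdh with 0.170 against 0.0247 in epithelial-like and 0.0587 in mesenchymal-like cells.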

How the data were processed

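Single cells of sorted nucEGFP+ ventricle cells were profiled with 10x Genomics 3′ v3 chemistry in 3 libraries, 1 for each of Ctrl, 3 dpa and 7 dpa, grouped by the labels. Raw UMI counts per gene and barcode were deposited by the authors, who used Cell Ranger 3.0.2 with the GRCz10 genome according to the submitters' processing notes. The counts are not normalized, and the matrices hold called cells only. The members, gene lists and tests were chosen with earlier results of these data known.

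Droplets with over 316 genes and under 5% mitochondrial UMIs were kept. Cells were clustered with Seurat 5.3.0 (SCTransform 0.4.2 with the library as covariate, 3000 variable genes, 20 components, 20 neighbours, resolution 0.3) in R 4.3.3, without slc genes, markers and tcf21. A cluster was called X-like from 12 marker lists, and classes rebuilt in this way can differ from those of the study. Scrublet in scanpy 1.11.5 called 2 cells in all, so it was judged not to have worked and no doublets were removed. UMIs were summed per class and library. Ratios and intervals were computed with scipy 1.17.1 and tested on simulated data. The simulated counts held counting error alone, so that test does not cover variation between cells, fish or libraries. No model across genes was fitted and no p-value is given, since cells are not replicates.

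Named were the members that mark a class, up to 8 per class, and for each comparison up to 10 higher and 10 lower members, ranked by the interval bound nearer to 1, with the 2 genes on each side of the 300 UMI limit and paralog pairs with a called copy. 1 member named by this rule is not reported here, although counts over members include it. For shares of cells with a UMI, each cell was thinned to 1800 UMIs and shallower cells were left out. Alternatives changed the mitochondrial limit, a UMI minimum per droplet, the resolution, the normalization, the genes used in clustering, doublet removal, the scaling, the weighting of cells, the minimum of UMIs and the fold. Read sharing between paralogs and with antisense genes was not checked. No sequences are shown, since none were in the tables used here.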

Additional observations from a re-analysis of the deposited data

How the results depend on the processing

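No paired analysis was possible because there is 1 library per condition. Of 167 named ratios, 130 were past 2-fold under every alternative run that covered them and 37 were not under at least 1 of them. The other UMI minimums and the fold of 1.5 change calls and cannot change a ratio. The alternatives chosen after seeing the data cover only part of the ratios. Signs turned for 2 class marks. For slc24a4b the lowest log2 ratio of mesenchymal-like cells to another class was -0.28 with a mitochondrial limit of 10%, where 114 aEPC-like cells at Ctrl had 6 UMIs and a level of 0.113 against 0.0932. For slc2a11l it was -0.34 with all genes kept in clustering, where 75 cardiomyocyte-like cells at 7 dpa had 0.963 against 0.762. A minimum of 1000 UMIs per droplet and a resolution of 0.5 left every count within 1.5 times. So did equal weights for the 4 mesenchymal-like clusters, an alternative chosen after seeing the data. Setting endothelial-like cells apart, also chosen after seeing the data, left the counts it covered within 1.5 times. That setting could not test a mural-like mark against endothelial-like cells. These numbered 30 (Ctrl), 6 (3 dpa) and 16 (7 dpa), under the minimum of cells for a class to be compared. At resolution 0.5 no cluster was endothelial-like.

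Counts that moved are given by setting, and the cause was not tested except where the setting's own construction gives it. A mitochondrial limit of 10% gave 18 epithelial-like members higher at 3 dpa, 9 lower in aEPC-like than mesenchymal-like cells and 0 marks of mesenchymal-like and 0 of aEPC-like cells. Log normalization gave 4 mesenchymal-like members lower at 7 dpa than at 3 dpa, 1 mesenchymal-like, 0 aEPC-like and 4 mural-like marks. All genes kept gave 20 epithelial-like members higher at 3 dpa and 5 at 7 dpa than at Ctrl, and 1 mesenchymal-like mark. Removal of the highest Scrublet scores gave 2 epithelial-like and 2 aEPC-like marks. Median scaling gave 10 epithelial-like members higher and 2 lower at 7 dpa than at 3 dpa, and 9 higher and 22 lower in aEPC-like than mesenchymal-like cells. Means over cells gave 5 epithelial-like members higher at 7 dpa than at Ctrl, 4 mesenchymal-like members lower at 7 dpa than at 3 dpa, and 2 epithelial-like, 9 aEPC-like and 4 mural-like marks. With the rsad2-led cluster counted as epithelial-like, an alternative chosen after seeing the data, 18 members were higher at 3 dpa and 7 at 7 dpa.

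A minimum of 50 UMIs tests more members, with 20 epithelial-like members higher at 3 dpa and 9 at 7 dpa than at Ctrl. A minimum of 300 UMIs tests fewer. It left, for epithelial-like cells, 4 higher and 5 lower at 3 dpa, 0 higher and 1 lower at 7 dpa than at Ctrl and 4 lower at 7 dpa than at 3 dpa. For mesenchymal-like cells it left 8 higher at 3 dpa, 4 higher and 1 lower at 7 dpa than at Ctrl and 3 lower at 7 dpa than at 3 dpa. It left 17 higher in aEPC-like than epithelial-like cells, 11 higher and 9 lower in aEPC-like than mesenchymal-like cells, and 5 higher in epithelial-like than mesenchymal-like cells at Ctrl. A fold of 1.5 gave, for epithelial-like cells, 22 higher and 23 lower at 3 dpa, 12 higher and 17 lower at 7 dpa than at Ctrl and 16 higher and 19 lower at 7 dpa than at 3 dpa. For mesenchymal-like cells it gave 35 higher at 3 dpa, 20 higher and 9 lower at 7 dpa than at Ctrl and 22 higher and 19 lower at 7 dpa than at 3 dpa. It gave 44 higher and 22 lower in aEPC-like than mesenchymal-like cells, 21 higher and 28 lower in epithelial-like than mesenchymal-like cells at Ctrl, and 2 epithelial-like, 10 aEPC-like and 5 mural-like marks.

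Depth limits the small classes. Mural-like cells summed to 373815 UMIs at 7 dpa, where 3 counts are a level of 0.0803, against 0.00115 in mesenchymal-like cells, and aEPC-like cells at Ctrl and 7 dpa were too few to be read.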

Other observations

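A list of 41 genes, most of them solute carriers that go by other symbols, gave 39 entries, with slco5a1a entered more than once. At 3 dpa 6 of 21 with enough UMIs were higher than at Ctrl in mesenchymal-like cells and 3 lower, where 14.3% and 8.52% of all genes were, and in epithelial-like cells 5 of 14 were higher and 0 lower, where 20.5% and 7.82% of all genes were. mpc2, a subunit of the mitochondrial pyruvate carrier, had 0.561 at 3 dpa against 0.232 at Ctrl in mesenchymal-like cells and 0.689 against 0.335 in epithelial-like cells. ctns, the lysosomal cystine exporter, had 0.111 against 0.0341 and 0.122 against 0.0382. The phosphate exporter gene xpr1b was lower in mesenchymal-like cells, with 0.159 against 0.388, as were the phosphate importer genes slc20a1b and slc20a2. ankha, a counterpart of mammalian ANKH, which acts in pyrophosphate release, was higher, with 0.0793 against 0.0102. In aEPC-like cells ankha had 0.184, against 0.0257 in epithelial-like and 0.0793 in mesenchymal-like cells at 3 dpa.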
